A study of Mus musculus with 6 samples.

Results

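The genes described here are the 4 pulmonary surfactant protein genes Sftpc, Sftpa1, Sftpb and Sftpd and 4 genes whose products process or store surfactant, Napsa, Ctsh, Abca3 and Lamp3. They were taken by symbol, and all 8 were found among the 31055 features of the expression matrix. Their levels were read in 12183 of 16017 deposited cells, those with at least 500 detected genes and at most 20% mitochondrial UMIs (unique molecular identifiers, tags that let each captured transcript copy be counted once).

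Surfactant is a film of lipid and protein that alveolar type II (ATII) cells secrete to keep alveoli open. The hydrophobic proteins SP-C (Sftpc) and SP-B (Sftpb) are made as precursors, cut by proteases on the way to lamellar bodies and packed there with phospholipid, whereas SP-A (Sftpa1) and SP-D (Sftpd) are collectins that bind microbes. In alveolar repair, ATII cells give rise to flat alveolar type I (ATI) cells, which carry Hopx, through states rich in the keratins Krt8 and Krt18, and surfactant genes are lost along this route.

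Neoplastic cells were sorted from lung tumors of 6 mice that carried the Lkb1XTR/XTR and Rosa26LSL-tdTomato alleles, with or without a FLPo-ERT2 allele, and were profiled by 10x 3′ single-cell RNA sequencing. Every mouse therefore carried the tdTomato marker and a Lkb1 (Stk11) gene that Cre converts to a trapped form ending in GFP. FLPo-ERT2 removes the trap once tamoxifen is given. Tumors were started with lentiviral Cre and had grown for 20 weeks, and treatment lasted 2 weeks, with tamoxifen in 4 mg doses or vehicle. The restored group was 3 mice with FLPo-ERT2 given tamoxifen, and the non-restored group was 1 mouse with FLPo-ERT2 given vehicle and 2 mice without it, 1 given tamoxifen and 1 given vehicle. Of the mice, 4 were male and 2 female, and CD45, CD31, F4/80, Ter119 and DAPI staining excluded blood, endothelial and dead cells during the sort.

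All mice share 1 matrix and no map from cells to mice was used here, so restored and non-restored mice were not compared. At 3 mice a group, the exact permutation test (two-sided) has a smallest possible p of 0.1. The pooled matrix was treated as 1 sample, no test was run between cells, and each 95% interval below covers counting error only, not the spread between mice. Which mouse or tumor a cell came from cannot be told apart from its state in any comparison of cells below.

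The cells held a median of 19348 UMIs (671 to 125731) and 4171 genes. A tdTomato UMI was found in 99.3% of them and a UMI of Epcam, an epithelial adhesion gene, in 89.2%. Fibroblast, endothelial or immune markers reached at least 5 UMIs per 10000 in 478 cells (3.92%; 264 with fibroblast, 131 with endothelial and 88 with immune markers, some with more than 1 kind), which had a median of 14225 UMIs and an Epcam UMI in only 15.5%. These 478 cells served as a comparison for RNA of the 8 genes in cells with other markers. Doublets were not called, so some may be joined with a tumor cell. Whether any of them make these genes was not tested. Levels are UMIs per 10000, summed over the cells named unless a per-cell level is stated, and a 3′ UMI counts 1 transcript copy whatever its length.

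The upstream sequences of Sftpb and Sftpa1 are shown because these were the surfactant protein genes with an entry in the RefSeq promoter table (GRCm38.p6), and they differed widely in how much of their level was retained in keratin-high cells. In the printed windows, which end at the base before the annotated start of the gene, capitals mark CTCAAG, the core of the motif bound by NKX2-1.
Sftpb, chr6:72304360-72304609, plus strand: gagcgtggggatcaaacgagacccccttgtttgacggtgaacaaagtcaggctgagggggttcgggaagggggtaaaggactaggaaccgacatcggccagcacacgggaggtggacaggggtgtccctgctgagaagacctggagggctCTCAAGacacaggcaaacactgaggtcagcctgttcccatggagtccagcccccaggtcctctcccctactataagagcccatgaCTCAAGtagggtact
Sftpa1, chr14:41131538-41131781, plus strand: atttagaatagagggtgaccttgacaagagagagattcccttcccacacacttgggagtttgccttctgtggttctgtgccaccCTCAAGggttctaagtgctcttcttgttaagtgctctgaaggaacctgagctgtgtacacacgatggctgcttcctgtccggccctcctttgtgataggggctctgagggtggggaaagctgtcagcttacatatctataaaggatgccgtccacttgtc
The Sftpb window of 250 bases held CTCAAG 2 times, beginning 100 and 15 bases before the start of the gene. The Sftpa1 window of 244 bases held it 1 time, beginning 160 bases before the start. All of these lay on the printed strand, and of 32851 promoter windows of 250 bases 13.3% held the motif on either strand. Searched on both strands, TTGCNNAA (a C/EBP motif, in 9.56% of all windows) and TGTTTAC (a forkhead motif, in 3.17%) matched neither printed window, and none of the 3 motifs overlapped another. Windows for Lamp3 (240 bases outside the gene) and Abca3 (177 bases) held 1 match to TGTTTAC and no match to any of the 3, respectively.

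Sftpc (ENSMUSG00000022097; mm10, chromosome 14, 70520949 to 70524081) was the most abundant of the 8 genes, at 1161 UMIs per 10000, or 11.6% of all UMIs. The other 7 genes were each at least several-fold less abundant. Sftpa1 (ENSMUSG00000021789; chromosome 14, 41131782 to 41136452) followed at 144 and Sftpb (ENSMUSG00000056370; chromosome 6, 72304610 to 72314371) at 101. Sftpd (ENSMUSG00000021795; chromosome 14, 41172214 to 41185149), which lies close to Sftpa1 on the chromosome, stood at 40.6.

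The proteases were lower and nearly level with each other. Napsa (ENSMUSG00000002204; chromosome 7, 44572380 to 44586862), which encodes the aspartic protease napsin A, was at 22.2 per 10000 (22.1 to 22.2). Ctsh (ENSMUSG00000032359; chromosome 9, 90054152 to 90076089), which encodes the cysteine protease cathepsin H, was at 22.0 (21.9 to 22.1). Both enzymes cut the SP-B precursor. Lamp3 (ENSMUSG00000041247; chromosome 16, 19653378 to 19706375), a membrane protein of lamellar bodies, was at 5.80, and Abca3 (ENSMUSG00000024130; chromosome 17, 24351950 to 24410201), which pumps phospholipid into lamellar bodies, at 3.49. In the cells with stromal or immune markers the levels were 71.2 for Sftpc, 6.79 for Sftpa1, 7.27 for Sftpb and between 0.437 and 3.07 for the other 5 genes.

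Single cells spread over a far wider range than these sums show. The per-cell level of Sftpc was 7.87 per 10000 at the 5th percentile, 1137 at the median and 2107 at the 95th percentile, a 268-fold span. Sftpa1 ran from 0.292 through 104 to 326, and Sftpb from 1.56 through 98.1 to 188. The low end includes the stromal or immune marker cells, whose median Sftpc level was 10.1. Without them the 5th percentiles were 10.5 for Sftpc, 0.593 for Sftpa1 and 5.02 for Sftpb, and the span of Sftpc to its 95th percentile was 202-fold.

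Spread relative to the mean was smaller within 1 cell state than over all cells, which include the stromal or immune marker cells. A reference set of 4585 cells with low keratin, low Hopx and no stromal or immune markers had Sftpc between 477 (5th percentile) and 2252 (95th percentile), a 4.72-fold span. After every cell was thinned to 5000 UMIs, the coefficient of variation of Sftpc was 0.644 in all 11084 cells that were deep enough and 0.301 in 4307 reference cells, where counting alone would give 0.0356. For Sftpa1 it was 0.855 in all cells and 0.525 in reference cells, where counting alone would give 0.102. For Sftpb the values were 0.586 and 0.363 (counting alone 0.130) and for Sftpd 0.719 and 0.543 (counting alone 0.217). In the reference state Sftpc thus had the lowest coefficient of variation of the surfactant protein genes, and Sftpa1 and Sftpd lay close together above Sftpb.

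After thinning, each of the 8 genes had a UMI in at least 50% of cells. Sftpc was detected in 99.4% of cells (99.2 to 99.5) but also in 95.1% of 350 stromal or immune marker cells (92.3 to 97.1), so a single Sftpc UMI did not separate them, and without thinning 99.6% of the marker cells had one. Abca3 was detected in 71.1% (70.3 to 72.0) against 14.0% of the marker cells (10.5 to 18.1), and Lamp3 in 74.2% (73.4 to 75.1) against 9.14% (6.34 to 12.7). Without thinning the shares were 86.3% and 27.4% for Abca3, and 78.4% and 12.3% for Lamp3.

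To ask in what order the genes were lower as keratin was higher, cells were binned by the summed level of Krt8 and Krt18, which orders cells by level and not by time. The keratin-low bin (under 10 per 10000) held 5743 cells, the middle bin (10 to 50) 5257 and the keratin-high bin (50 or more) 1183. Of the 8 genes, 6 were at least 2-fold lower in keratin-high than in keratin-low cells, among 6.26% of all 6435 genes measured (at least 0.2 UMIs per 10000 in either bin). The median log2 ratio of the 8 genes was -1.92, and that of all genes 0.40.

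Sftpc differed most, from 1529 per 10000 in keratin-low through 1039 in middle to 192 in keratin-high cells, with 12.6% of its level retained. Sftpa1 went from 188 through 128 to 32.9, retaining 17.5% (17.4 to 17.6). Sftpb, by contrast, went from 109 through 103 to 63.8 and retained 58.7% (58.4 to 58.9). It stayed nearly level up to the middle bin and was one of the 2 genes that did not reach a 2-fold difference. Relative to the median gene its log2 ratio was -1.17, past the limit, so this call depends on what the level is set against.

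Sftpd was at 41.7 in keratin-low, 44.9 in middle and 20.7 in keratin-high cells, so it lay just past the 2-fold limit with 49.7% retained (49.3 to 50.1). The interval of Sftpd spans that limit, and 5 rather than 6 genes passed it when cells were thinned or weighted equally. Sftpc outnumbered Sftpb 14.1 to 1 in keratin-low cells, 10.1 to 1 in middle cells and 3.02 to 1 in keratin-high cells. In the stromal or immune marker cells the ratio was 9.80.

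Both proteases were present in the keratin-high cells, but they went opposite ways. Napsa was at 24.8, 22.9 and 9.60 over the 3 bins and retained 38.8% (38.3 to 39.2). Ctsh was at 17.3, 25.4 and 27.8 and thus was 160% of its keratin-low level in keratin-high cells (159 to 162). The lamellar body genes were retained about as little as Sftpa1. Abca3 went from 4.57 through 3.07 to 0.827 (18.1% retained, 17.4 to 18.8), which did not differ from Sftpa1 beyond counting error, and Lamp3 from 7.41 through 5.37 to 1.20 (16.2%, 15.7 to 16.8).

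Per cell, the keratin-high bin was mixed rather than uniformly low. The Sftpc level was 4.38 at the 10th percentile, 39.6 at the median and 662 at the 90th percentile of keratin-high cells, against 112, 1516 and 2090 in keratin-low cells. The median was thus far under the summed level of 192, which was carried by a minority of cells. Lamp3 was 0 in the median keratin-high cell, and Ctsh had a median of 24.6 against 12.5 in keratin-low cells.

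**Figure D1:**
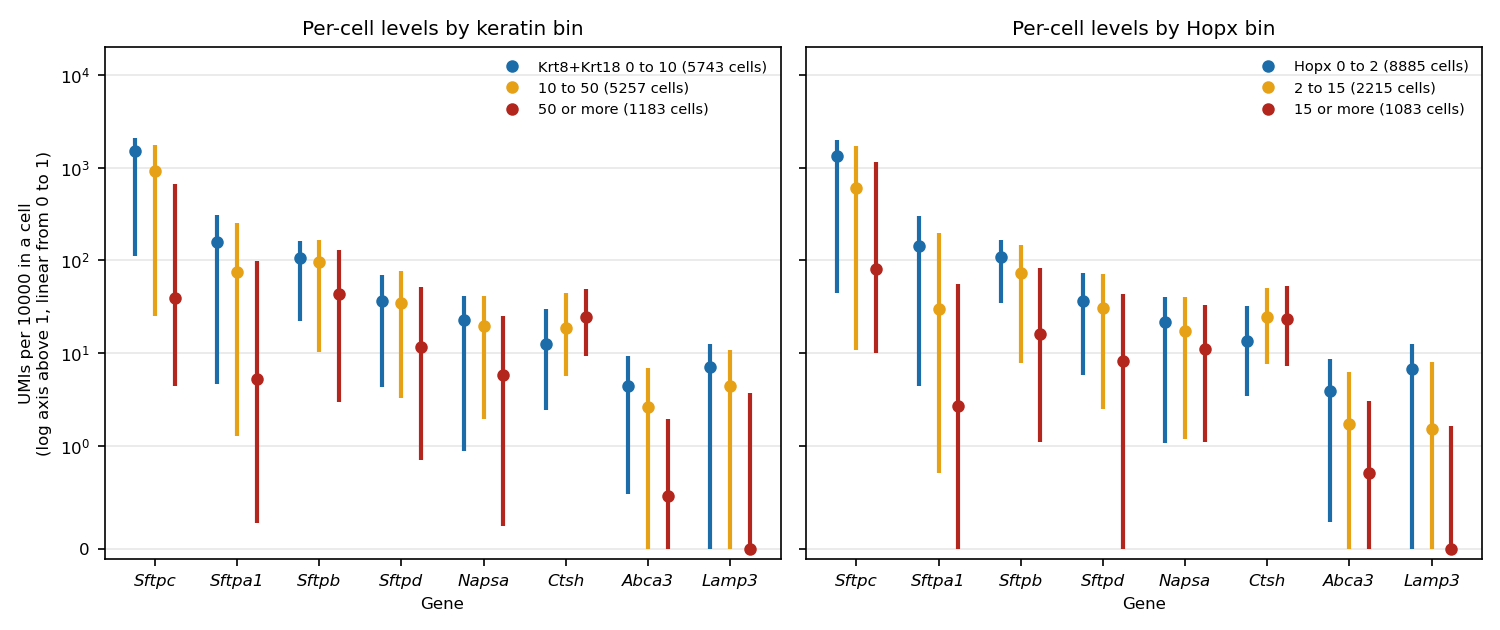
Per-cell levels of the 8 genes (UMIs per 10000, log axis above 1 and linear below) in the 3 keratin bins (left) and the 3 Hopx bins (right); points are medians over cells and lines run from the 10th to the 90th percentile. The median of Sftpc goes from 1516 to 39.6 per 10000 between the keratin-low and keratin-high bins, while that of Ctsh goes from 12.5 to 24.6.

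Other measures moved with the bins. Median UMIs were 19109, 18594 and 23490 from keratin-low to keratin-high, the median mitochondrial share was 4.41%, 3.43% and 1.96%, and 453 of the 478 stromal or immune marker cells fell in the keratin-low bin, where they made up 7.89%. Their part in the differences was not tested beyond thinning, other depth and mitochondrial limits, totals without mitochondrial UMIs, and leaving out the marker cells. Without the marker cells the same number of genes, 6, was past the 2-fold limit, and with thinning fewer were. Summed over 6 ATII markers (Lyz2, Slc34a2, Cxcl15, Hc, Lpcat1 and Etv5) the level was 260 per 10000 in keratin-low and 13.1 in keratin-high cells. The 6 transitional markers, which include Krt8 and Krt18 themselves, went from 8.51 to 146, and the 4 club cell markers (Scgb1a1, Scgb3a2, Scgb3a1 and Cyp2f2) from 8.25 to 0.165. The 6 ATI markers named below went from 17.7 to 40.8. The 4 ciliated cell markers (Foxj1, Tppp3, Dynlrb2 and Ccdc153) went from 0.253 to 2.90.

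Keratin-high cells differed by gene in how often they stood above the level of the stromal or immune marker cells. The mark used was the 90th percentile of the marker cells, which for Sftpc was 14.2 thinned UMIs against a median of 4. After thinning, 51.0% of 1088 keratin-high cells (48.0 to 54.0) had more Sftpc UMIs than the 90th percentile of the marker cells, and 49.9% (46.9 to 52.9) had more Sftpa1. The shares were 86.1% for Sftpb (83.9 to 88.1), 77.2% for Sftpd (74.6 to 79.7), 64.2% for Napsa (61.2 to 67.0) and 93.7% for Ctsh (92.04 to 95.03). They were 26.6% for Lamp3 and 8.55% for Abca3 (6.95 to 10.4). These rest on unlike marks, 0 UMIs for Lamp3 and 1 for Abca3, so they do not rank the genes. At least 1 Abca3 UMI was found in 30.7% of thinned keratin-high cells. In reference cells 99.9% were above that mark for Sftpc and 69.3% for Abca3. The detection share of Lamp3 in keratin-high cells, 26.5% (23.9 to 29.2; 47.4% without thinning), was still above the 9.14% of the marker cells.

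Finer bins, with the stromal or immune marker cells left out, showed at which keratin level each gene began to be lower. Abca3 was lower already among keratin-low cells, at 6.29 per 10000 under 2 keratin UMIs per 10000, 5.39 from 2 to 5 and 4.49 from 5 to 10. Sftpc was flat over the same bins, at 1675, 1702 and 1589, then reached 1283 from 10 to 20 and 61.1 in the 106 cells at 150 or more. Abca3 had the smallest share retained in each bin from 2 to 50, and Sftpc had it in each bin from 50 upward.

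Sftpd and Ctsh were highest at intermediate keratin levels. Sftpd was at 38.1 in the lowest bin and highest, at 48.0, from 10 to 20, before it reached 12.6 at 150 or more. Ctsh was at 12.2 in the lowest bin and highest, at 30.2, from 35 to 50. The 478 cells of the lowest bin were shallow, at a median depth of 10111 UMIs against 18230 in the next bin, and their median mitochondrial share was 7.14%.

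**Figure D2:**
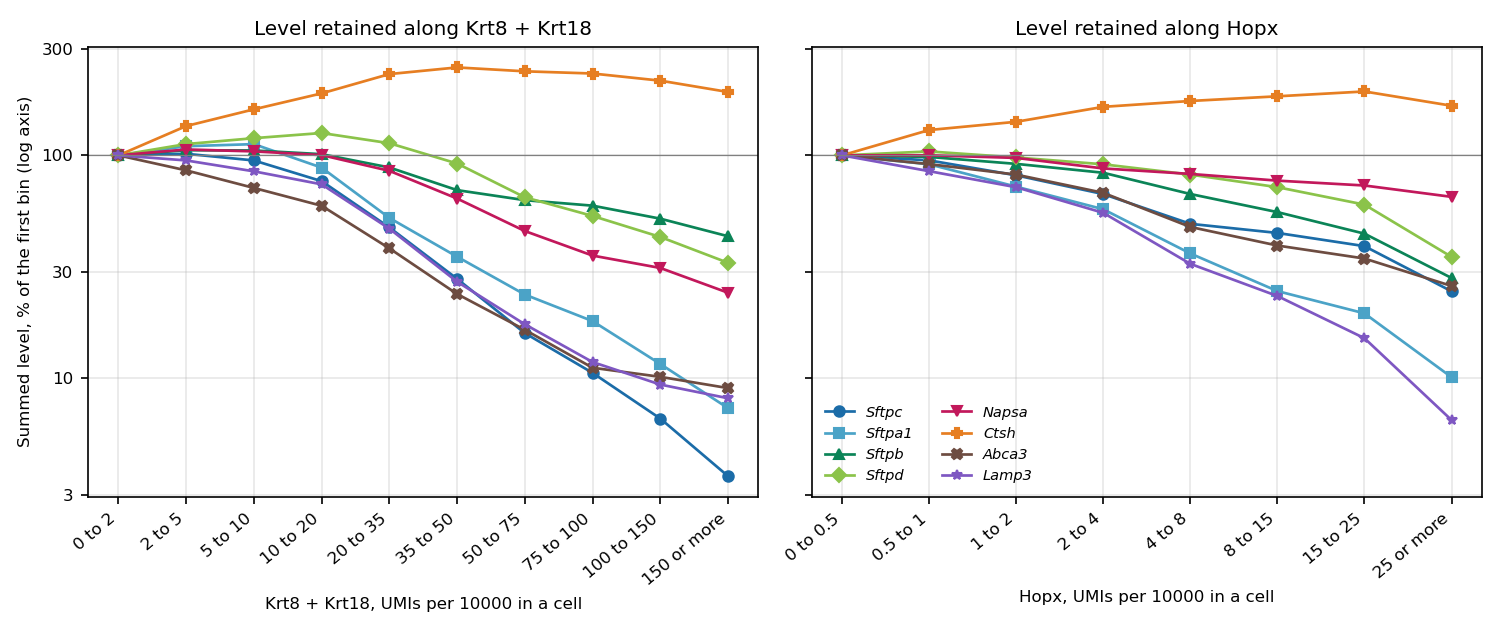
Summed level of each gene as a percentage of its level in the first bin (log axis) over 10 bins of Krt8 + Krt18 (left) and 8 bins of Hopx (right), in UMIs per 10000 and without stromal or immune marker cells; each line is 1 gene. Sftpc ends lowest along keratin and Lamp3 lowest along Hopx, while Ctsh lies above 100% in every bin after the first on both axes.

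Hopx, a marker of ATI cells, gave a different order of loss. The Hopx-low bin (under 2 per 10000) held 8885 cells, the middle bin (2 to 15) 2215 and the Hopx-high bin (15 or more) 1083. Again 6 of the 8 genes were at least 2-fold lower in Hopx-high than in Hopx-low cells, among 5.8% of all 6362 genes measured, and the medians of the log2 ratio were -1.49 for the 8 genes and 0.30 for all. Napsa and Sftpb exchanged places between the axes: Sftpb passed the limit along Hopx and Napsa did not.

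Lamp3 was lowest in proportion along Hopx, from 6.83 per 10000 through 3.06 to 0.793, with 11.6% retained (11.0 to 12.3). Sftpa1 followed, from 168 through 79.1 to 26.7 (15.9%, 15.7 to 16.0). Sftpc kept more than along keratin, with 1305, 784 and 439 over the bins and 33.6% retained (33.5 to 33.7). Its neighbour in the order was Abca3 (3.93, 2.31 and 1.27; 32.2%, 30.8 to 33.7), from which it did not differ beyond counting error.

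Sftpb went from 109.8 through 82.6 to 41.2, with 37.6% retained (37.3 to 37.9), and Sftpd from 42.9 through 37.0 to 20.7, with 48.3% (47.7 to 48.8). Napsa kept 71.7% (70.8 to 72.6), at 23.1, 19.98 and 16.6. Ctsh was again higher, at 19.2, 30.8 and 32.1, or 167% of its Hopx-low level (166 to 169). The ratio of Sftpc to Sftpb, which differed several-fold along keratin, was 11.9, 9.50 and 10.6 over the Hopx bins.

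In finer Hopx bins without the stromal or immune marker cells, the differences were graded. Lamp3 was at 7.58 per 10000 in the 6013 cells under 0.5 Hopx UMIs per 10000, 4.19 from 2 to 4 and 0.493 in the 666 cells at 25 or more. Sftpc went over the same bins from 1404 through 941 to 345, and Napsa from 24.1 through 21.0 to 15.7. Lamp3 had the smallest share retained of the 8 genes in each bin after the first, while Ctsh was highest, at 34.6, from 15 to 25.

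Hopx-high cells were shallower, with a median of 12374 UMIs against 20695 in Hopx-low cells, and the 6 ATI markers (Hopx itself, Ager, Rtkn2, Aqp5, Spock2 and Clic5) went from 18.1 to 127 per 10000. Over the 3 Hopx bins the median mitochondrial share was 4.13%, 2.99% and 2.16%, and stromal or immune marker cells numbered 453, 23 and 2. From the Hopx-low to the Hopx-high bin the 6 ATII markers went from 213 to 20.2 per 10000, the 4 club cell markers from 8.77 to 0.439 and the 6 transitional markers from 28.9 to 50.8. The 4 ciliated cell markers went from 0.489 to 1.98. These measures were addressed by thinning, depth and mitochondrial limits, changed totals, leaving out the marker cells, and crossing with keratin below. Their part in the differences was not tested further. With every cell thinned to 5000 UMIs, or without the marker cells, the same count, 6 of 8, was reached. The median Hopx-high cell held 80.8 Sftpc UMIs per 10000 although the summed level was 439, and the 90th percentile was 1142, so this bin also mixed cells with and without much Sftpc. After thinning, 64.9% of 955 Hopx-high cells (61.8 to 68.0) exceeded the 90th percentile of the marker cells for Sftpc, and 34.6% (31.5 to 37.7) did for Sftpa1. The shares were 71.8% for Sftpb, 68.4% for Sftpd, 82.5% for Napsa and 92.3% for Ctsh, but 15.7% for Lamp3 and 11.8% for Abca3. The last 2 again rest on marks of 0 and 1 UMIs. At least 1 Abca3 UMI was found in 39.1% of thinned Hopx-high cells.

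When both axes were crossed, without stromal or immune marker cells, the low level of Sftpc in keratin-high cells did not vary much with Hopx. It was 192 per 10000 in 617 keratin-high cells with low Hopx, 189 in 435 with middle Hopx and 213 in 126 with high Hopx. In keratin-low cells it went from 1656 through 1457 to 806, the last in only 141 cells. The per-cell medians of Sftpc there were 1606, 1349 and 188, so the last sum was far above its typical cell. Those 141 cells had a median depth of 8422 UMIs. Sftpa1 was lower with Hopx at each keratin level, from 208 to 51.3 in keratin-low and from 40.9 to 12.5 in keratin-high cells. Among these keratin-low cells 5 of the 8 genes were at least 2-fold lower with high than with low Hopx, namely Sftpa1, Lamp3, Sftpb, Abca3 and Sftpc, with log2 ratios of -2.02, -2.00, -1.18, -1.07 and -1.04, among 4.57% of all genes measured there. With the marker cells left in, which made up 436 of 5021 keratin-low and Hopx-low cells, the count was 3, since Abca3 and Sftpc then lay just inside the limit at -0.99 and -0.95, and 5.61% of all genes passed it.

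Loss was then scored cell by cell for the 4 surfactant protein genes, a cell counting as low when it held under 25% of the median thinned UMIs of the reference cells. In the reference cells 90.2% were low for none of the 4. Among 1088 keratin-high cells, 83.1% were low for Sftpc (80.7 to 85.3), 78.0% for Sftpa1, 42.1% for Sftpd and 37.3% for Sftpb (34.4 to 40.3). All 4 were low in 25.5% of these cells and none in 9.01%.

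Low Sftpc without low Sftpb was the more frequent of the discordant patterns in keratin-high cells. There, 508 cells were low for Sftpc with Sftpb kept, and 10 were low for Sftpb with Sftpc kept. Among 955 Hopx-high cells the leading gene was Sftpa1, low in 88.0% (85.72 to 89.95), followed by Sftpc in 68.4%, Sftpb in 59.0% and Sftpd in 51.2%. Here 204 cells were low for Sftpa1 with Sftpc kept, against 17 the other way, whereas in keratin-high cells these numbers were 85 and 140. The limit for Sftpd was only 4.75 UMIs, so its shares carry more counting noise than those of Sftpc, whose limit was 205.

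**Figure D3:**
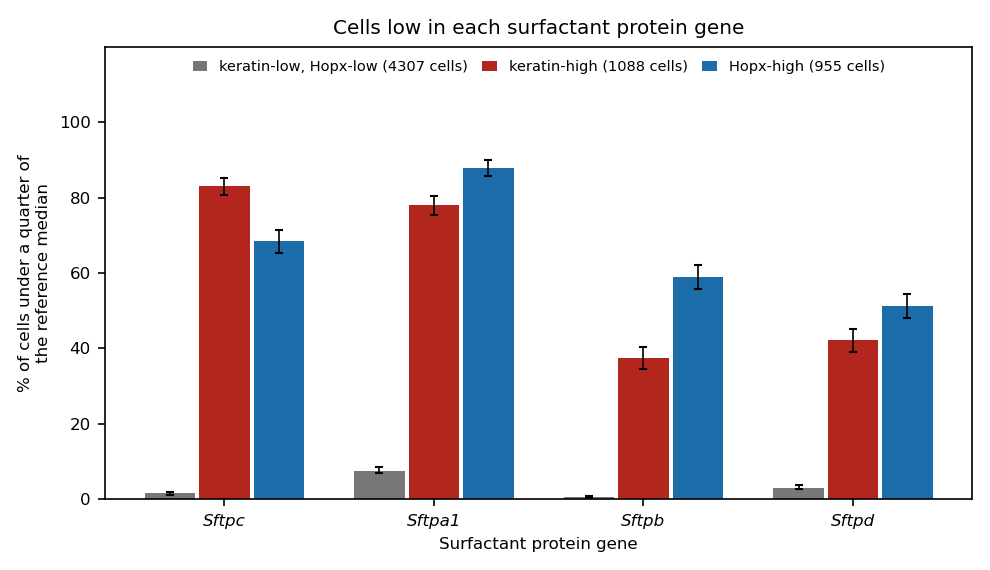
Percentage of thinned cells holding under 25% of the reference median for each surfactant protein gene, in reference cells (gray), keratin-high cells (red) and Hopx-high cells (blue); bars start at 0 and error bars are exact binomial 95% intervals. Sftpc is the gene most often low in keratin-high cells (83.1%) and Sftpa1 in Hopx-high cells (88.0%).

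Gene-to-gene correlation across cells was described by Spearman's rho on thinned UMIs, without a p value, since cells share libraries and tumors. Over all 11084 cells 19 of the 28 gene pairs had a rho of at least 0.3. The highest was Sftpc with Sftpa1, at 0.73, and the lowest Ctsh with Abca3, at -0.21. Ctsh stood apart, with a mean rho of 0.020 with the other 7 genes, against 0.27 to 0.46 for each of the others.

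Within the 4307 reference cells only 3 pairs had a rho of at least 0.3. These were Sftpa1 with Sftpd (0.50), Sftpc with Sftpa1 (0.43) and Sftpd with Ctsh (0.43). Sftpc and Lamp3, at 0.52 over all cells, were at -0.09 among the reference cells, and Sftpc with Abca3 went from 0.39 to -0.14. Abca3 and Lamp3 had the fewest UMIs of the 8 genes, a median of 2 and 4 per thinned reference cell.

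Correlation was again broad inside the bins that mixed high and low cells, with 14 pairs at 0.3 or more in keratin-high and 16 in Hopx-high cells. With keratin-low, Hopx-low cells that still included stromal or immune marker cells, 14 pairs reached 0.3 instead of 3. The pair Sftpa1 with Sftpd was the highest in keratin-high cells, at 0.73, and Sftpb with Sftpd in Hopx-high cells, at 0.66.

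**Figure D4:**
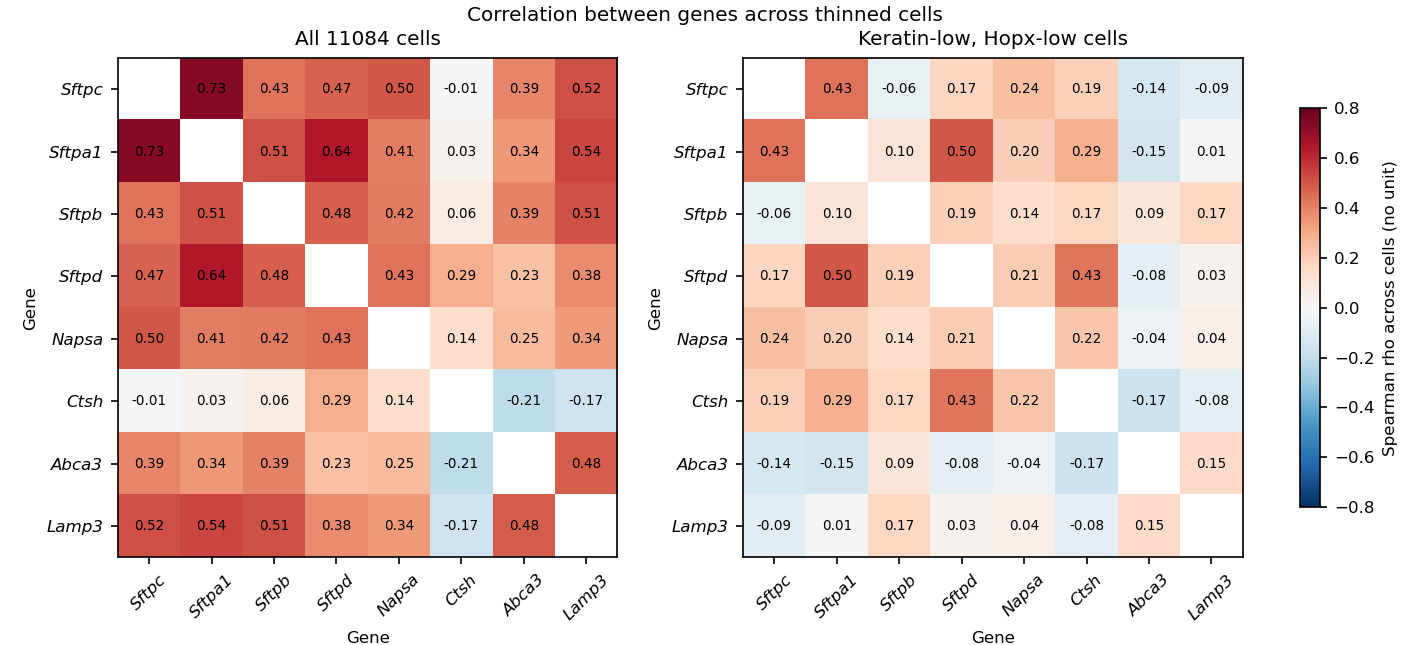
Spearman's rho between the 8 genes across thinned cells, for all 11084 cells (left) and the 4307 reference cells (right); red is positive, blue negative, and the value is written in each square. Of the 28 pairs, 19 reach 0.3 in all cells and 3 in reference cells.

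By likeness, the genes outside the set whose mean rho with the 8 members was highest, among 1284 genes at 1 or more UMIs per 10000, were Cxcl15 (0.48), Slc34a2 (0.41), Npc2 (0.40), Lcn2 (0.40), Chil1 (0.38), H2-Aa (0.38), Cd74 (0.38), Lyz2 (0.38), Lpcat1 (0.37) and Sfta2 (0.36). The median over all 1284 genes was -0.03. Cxcl15, a chemokine made in lung epithelium, had a rho of 0.75 with both Sftpc and Sftpa1 and of -0.10 with Ctsh.

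A list of 28 genes for surfactant lipid and lamellar bodies, of which 21 were measured, was read alongside. In keratin-high cells 10 of the 21 were at least 2-fold lower and 1, Rab38, was at least 2-fold higher, with a median log2 ratio of -0.99, where 6.26% of all genes were 2-fold lower and 15.6% 2-fold higher. Slc34a2, the phosphate transporter of ATII cells, was at 27.2 per 10000 in keratin-low and 1.91 in keratin-high cells. Scd1, a fatty acid desaturase, went from 34.3 to 4.02, Fasn, the fatty acid synthase, from 5.72 to 0.664, and Lpcat1, which remodels surfactant phosphatidylcholine, from 8.57 to 1.54.

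Along Hopx 11 of the 21 were at least 2-fold lower and none at least 2-fold higher, with a median of -1.06, against 5.8% and 8.93% of all genes. Fabp5, a fatty acid binding protein, separated the axes, from 4.83 to 0.184 per 10000 along Hopx but from 5.10 to 2.48 along keratin. Plin2, a lipid droplet coat protein, was lower in Hopx-high cells (2.16 to 0.831) and higher in keratin-high cells (1.99 to 3.11).

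Of 11 transcriptional regulators of surfactant genes, 3 were at least 2-fold lower in both comparisons. The median log2 ratio of the 11 was 0.28 along keratin and 0.35 along Hopx, against 0.40 and 0.30 for all genes. Cebpa went from 3.34 to 1.52 per 10000 along keratin and from 3.40 to 1.25 along Hopx. Etv5 went from 1.23 to 0.310 and from 1.07 to 0.476, and Srebf1, which drives lipid synthesis genes, from 1.17 to 0.482 and from 1.13 to 0.501. Over all genes the shares were 6.26% lower and 15.6% higher along keratin, and 5.8% lower and 8.93% higher along Hopx. Tead1 was the 1 regulator at least 2-fold higher, at 2.16 times its keratin-low and 3.31 times its Hopx-low level. Nkx2-1, which acts on surfactant promoters, was not lower, at 3.15 and 3.61 per 10000 along keratin and 3.27 and 5.97 along Hopx. Its ratio along keratin, 1.15, lay under that of the median gene, and its ratio along Hopx, 1.82, lay above.

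The last comparison set cells with a GFP UMI and no Stk11 UMI (3360 cells, median 24517 UMIs) against cells with a Stk11 UMI and no GFP UMI (3367 cells, median 23635). GFP marks the trapped allele and Stk11 the expressed one, but these are sets of cells chosen by transcript and not the mice of the restored and non-restored groups. Both transcripts were found in 29 cells and neither in 5427. Of the 8 genes, 2 were more than 1.5-fold apart, against 11% of all 5936 genes measured, so the members' share rests on few genes.

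Those genes were Sftpc, at 902 per 10000 in GFP-positive and 1444 in Stk11-positive cells (ratio 0.625, 0.624 to 0.625), and Sftpa1, at 104 and 192 (0.544, 0.542 to 0.545). Abca3 followed at 2.84 and 3.86 (0.737, 0.7254 to 0.7495) and Lamp3 at 5.20 and 6.29 (0.828, 0.818 to 0.838). Sftpb was at 93.6 and 109.7 (0.853) and Napsa at 21.6 and 22.9 (0.947). Sftpd and Ctsh were slightly higher in GFP-positive cells, both with a ratio of 1.09. The median log2 ratio was -0.25 for the 8 genes and 0.22 for all genes, and relative to the latter Sftpd and Ctsh were lower in GFP-positive cells and Abca3 also passed the limit, which makes 3 of 8.

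The composition of the sets differed along both axes. Of GFP-positive cells 23.6% were keratin-low, 57.3% middle and 19.1% keratin-high, against 64.2%, 30.9% and 4.90% of Stk11-positive cells. Along Hopx, 68.3% of GFP-positive cells were low, 22.9% middle and 8.75% high, against 77.0%, 14.5% and 8.58% of Stk11-positive cells, and the 6 ATI markers summed to 36.2 and 24.7 per 10000. Stromal or immune marker cells numbered 14 and 88. Other marker lists moved with the sets as well. The summed level of the 4 club cell markers was 0.456 per 10000 in GFP-positive and 12.2 in Stk11-positive cells, that of the 6 ATII markers 113 and 240.0, and that of the 6 transitional markers 55.4 and 21.3. The part of the club and ATII cell markers in the differences was not tested.

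Within keratin-low and Hopx-low cells, 715 GFP-positive against 1902 Stk11-positive, none of the 8 genes was more than 1.5-fold apart, where 6.25% of all genes were. Sftpc had a ratio of 0.887 (0.886 to 0.888) and Sftpa1 of 0.772 (0.769 to 0.775). In contrast, Sftpd was higher in GFP-positive cells, at 51.7 against 40.5 (1.28, 1.27 to 1.29), and so was Lamp3, at 8.86 against 7.48 (1.18, 1.16 to 1.21). Sftpb and Abca3 were close to equality, at 1.04 and 1.05.

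At middle keratin levels (1925 GFP-positive and 1039 Stk11-positive cells) only Sftpa1 was past the limit, with a ratio of 0.622 (0.620 to 0.625), against 5.16% of all genes. In keratin-high cells the ratios of Sftpd, Napsa and Lamp3 were 1.66, 1.93 and 1.97, although just 165 Stk11-positive cells stood behind them, and 9.85% of all genes were past the limit there. Sftpc there was at 196 per 10000 in GFP-positive and 144 in Stk11-positive cells, with per-cell medians of 47.0 and 15.6. Sftpa1 was thus the gene of the 8 with the lowest ratio in the low and middle keratin bins, and its ratio in keratin-high cells was 1.03.

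Within the middle and high Hopx bins the sets were further apart. Among cells with low Hopx (2296 GFP-positive and 2591 Stk11-positive) 1 of the 8 genes was past the limit, Sftpa1, with a ratio of 0.607 (0.605 to 0.608), against 11% of all genes. At middle Hopx levels (770 and 487 cells) 5 were, all lower in GFP-positive cells, against 10.7% of all genes, and the median log2 ratio was -0.76 for the 8 genes and 0.20 for all. These were Sftpa1, at 48.8 per 10000 in GFP-positive and 127 in Stk11-positive cells (0.386, 0.383 to 0.389), Sftpc (0.511), Lamp3 (0.542), Abca3 (0.543) and Sftpb (0.643). The same 5 genes were past the limit in Hopx-high cells (294 and 289), against 7.55% of all genes, with Sftpa1 at 14.3 and 45.5 (0.313, 0.305 to 0.321), Lamp3 at 0.478, Sftpb and Sftpc at 0.610 and Abca3 at 0.643. For Sftpc in Hopx-high cells the per-cell medians ran the other way, at 161 in GFP-positive and 93.6 in Stk11-positive cells. For Sftpa1 the medians were 1.44 and 4.09, in the direction of the sums.

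Few genes of the lists were apart between GFP-positive and Stk11-positive cells. Of the 21 lipid and lamellar body genes 1 was more than 1.5-fold apart, Lpcat1, at 5.39 per 10000 in GFP-positive and 8.09 in Stk11-positive cells, a difference of 1.502-fold whose interval (1.48 to 1.52) spans the limit, and of the 11 regulators none was, where 11% of all genes measured were. Their median log2 ratios were -0.06 and 0.09, both under the 0.22 of all genes.

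**Figure D5:**
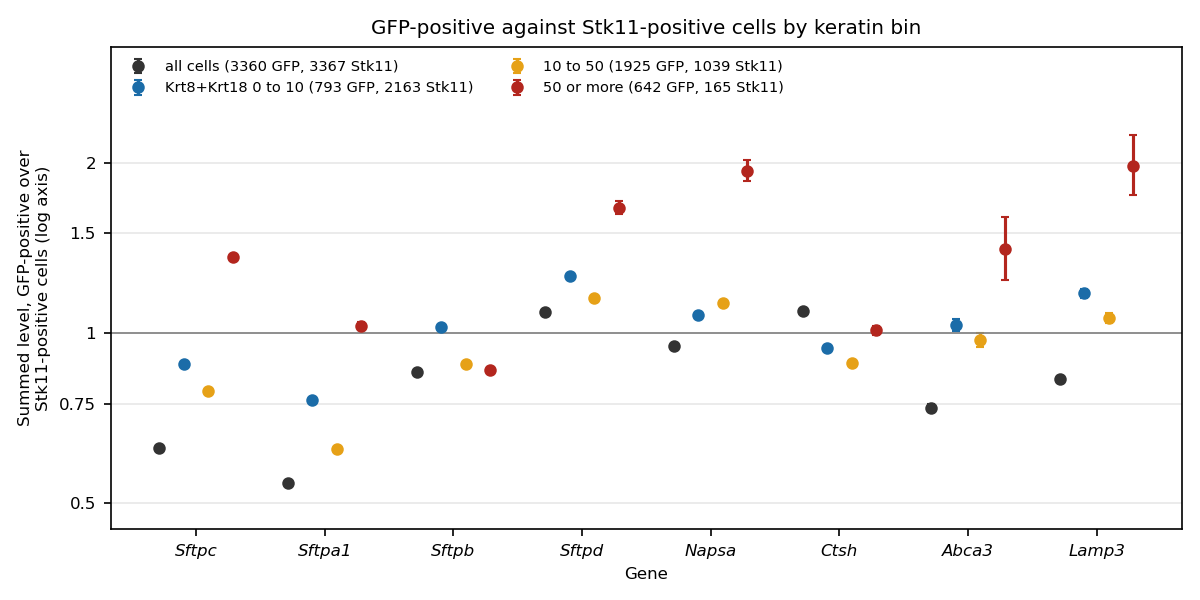
Ratio of the summed level in GFP-positive to that in Stk11-positive cells (log axis) for each gene, over all cells (black) and within the 3 keratin bins (blue, yellow and red); error bars are exact conditional 95% intervals for counting error, and the gray line marks equality. For Sftpc the ratio is 0.625 in all cells and 0.881, 0.788 and 1.36 within the bins.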

How the data were processed

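Per the file headers, the authors used Cell Ranger 3.0.2 with mm10 for alignment, cell calling and UMI counting. The deposited values were counts, raw UMIs per gene and cell for all mice in 1 matrix. The annotation release is not given in the sources used here. Coordinates came from a GENCODE annotation on GRCm38 by gene ID, which matched 30934 of 31055 features.

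Cells under 500 genes (2081) or over 20% mitochondrial UMIs (1753 more) were left out. Levels were sums of a gene's UMIs per 10000 UMIs of the cells, with exact Poisson intervals, exact conditional binomial intervals for ratios and Clopper-Pearson intervals for shares, all at 95%. PCR duplicates were removed by UMI. For shares, correlations and joint loss each cell was thinned to 5000 UMIs, and 1099 shallower cells were left out. Doublets were not called, since the matrix pools libraries, and shared barcodes were not counted because no barcode list was used here. The ratio script was tested on simulated data.

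The genes named were the 8 members, a list of 28 surfactant lipid genes, a list of 11 regulators, and the 10 genes of 1284 most alike. Members, bins and lists were chosen with earlier results of these data known. Python 3.11.15, numpy 2.4.6, scipy 1.17.1 and pandas 2.3.3 were used. Alternatives changed the filters, totals, weights, bins and thinning. One further allele that all mice shared is not reported here.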

Additional observations from a re-analysis of the deposited data

How the results depend on the processing

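The counts of genes and gene pairs held within 1.5 times under most alternatives. The count of 6 genes at least 2-fold lower in Hopx-high cells became 3 when restricted to cells with Krt8 + Krt18 under 10 per 10000, but 5 when the stromal or immune marker cells were also left out, an alternative chosen after seeing the data, and 5 or 6 under the other 12. The count of 6 along keratin ranged from 4, with both bin edges lowered 2-fold, to 7. The 2 genes over 1.5-fold apart between GFP-positive and Stk11-positive cells became 0 among keratin-low cells and among keratin-low, Hopx-low cells. The count was 1 at middle keratin levels, 1 at low Hopx levels, and 5 at middle and 5 at high Hopx levels. It was thus smaller in some bins and larger in others, and keratin was not matched within the Hopx bins. In keratin-high cells 3 were apart, all higher in GFP-positive cells, and there the called differences of Sftpc and Sftpa1 reversed, to log2 ratios of 0.45 and 0.040. Apart from keratin-low, Hopx-low cells, these restrictions were chosen after seeing the data. Relative to the median gene, also chosen after seeing the data, the 3 counts were 7, 6 and 3. Over all genes, this centring changed the calls from 403 lower and 1001 higher to 609 and 482 along keratin, from 369 and 568 to 506 and 357 along Hopx, and from 155 and 500 to 278 and 217 for GFP against Stk11. The order of the 8 genes along keratin kept 25 to 28 of 28 pairs. Between 14 and 24 gene pairs had a correlation of at least 0.3, and 7 or 8 genes a UMI in at least 50% of cells. Along keratin and Hopx none of the 8 genes changed direction under these alternatives, whereas between GFP-positive and Stk11-positive cells each of the 8 did under at least 1, Lamp3 from a log2 ratio of -1.06 at high Hopx to 0.98 at high keratin levels. The cause of the other changes was not tested.

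No paired analysis was possible because the matrix does not tie cells to mice and the labels give no replicate numbers. Variation between mice could not be measured, and the depth of the least abundant genes, Abca3 and Lamp3, limits their shares and correlations.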
